A study of Mus musculus with 10 samples.

Results

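Immediate early transcription factors were examined in sorted tumour-associated macrophages. The group held 10 genes, taken by symbol from the deposited tables: Fos, Fosb, Jun, Junb, Jund, Egr1, Egr2, Atf3, Nr4a1 and Ier2. All 10 were found, at 11 of the 46956 loci that carry a symbol, because Junb was listed at 2 loci. Of these 11 loci, 10 passed the filter on low counts. The other, a second Junb locus, had at most 3 fragments in any sample and was not analysed further.

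The macrophages came from mouse mammary tumours grown from 4T1 cells, a carcinoma line injected into the fat pad of the mammary gland in the strain BALB/cJ. In the treated group, 5 samples came from mice given JHU083, a pro-drug of the glutamine antagonist 6-diazo-5-oxo-L-norleucine, at 1 mg/kg from day 7 to day 13. The control group held 5 samples from mice given vehicle (PBS). All tumours were harvested on day 14, and live CD45+ cells that were CD11b+ and F4/80+ and lacked CD8, Ly6C and Ly6G were sorted for RNA sequencing. All mice carried the same tumour line and were of the same strain. The labels do not say whether each sample was 1 mouse, so the p-values measure only the spread between these samples.

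Immediate early genes are transcribed within minutes of a stimulus, because their activators are already bound near their promoters and need only be phosphorylated, chiefly by MAP kinases. The Fos and Jun proteins pair through leucine zippers to form AP-1, EGR1 and EGR2 are zinc-finger factors, ATF3 is a stress-induced relative of the AP-1 proteins, NR4A1 is an orphan nuclear receptor, and IER2 is a nuclear protein. In macrophages these genes respond to growth factors, bacterial products, adhesion and tissue handling.

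The promoters of Fos, Fosb, Nr4a1, Jun and Junb are shown because the first 4 genes rose with JHU083, with and without the motif marked here, and the last did not pass the test. Each line gives the 250 bases before the RefSeq transcription start (GRCm38.p6), 5′ to 3′ on the strand of the gene, with every TGACG, the core of the cAMP response element bound by CREB and ATF proteins, in capitals in either orientation. They lie at chr12:85473640-85473889 (plus strand), chr7:19310046-19310295 (minus), chr15:101266596-101266845 (plus), chr4:95052223-95052472 (minus) and chr8:84978749-84978998 (minus).
Fos: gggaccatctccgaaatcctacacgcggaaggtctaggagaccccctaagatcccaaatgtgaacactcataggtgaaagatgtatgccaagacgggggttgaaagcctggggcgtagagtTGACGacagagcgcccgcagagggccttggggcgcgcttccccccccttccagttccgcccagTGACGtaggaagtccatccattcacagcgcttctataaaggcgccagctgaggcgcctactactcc
Fosb: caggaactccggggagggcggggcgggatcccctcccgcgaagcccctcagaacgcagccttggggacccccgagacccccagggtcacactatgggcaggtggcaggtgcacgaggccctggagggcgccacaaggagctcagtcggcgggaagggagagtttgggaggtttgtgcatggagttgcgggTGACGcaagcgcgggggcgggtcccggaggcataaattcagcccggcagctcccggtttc
Nr4a1: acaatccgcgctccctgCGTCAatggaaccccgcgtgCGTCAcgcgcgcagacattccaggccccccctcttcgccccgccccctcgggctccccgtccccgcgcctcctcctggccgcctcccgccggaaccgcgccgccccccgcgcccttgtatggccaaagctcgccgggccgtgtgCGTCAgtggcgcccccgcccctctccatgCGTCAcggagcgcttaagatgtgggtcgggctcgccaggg
Jun: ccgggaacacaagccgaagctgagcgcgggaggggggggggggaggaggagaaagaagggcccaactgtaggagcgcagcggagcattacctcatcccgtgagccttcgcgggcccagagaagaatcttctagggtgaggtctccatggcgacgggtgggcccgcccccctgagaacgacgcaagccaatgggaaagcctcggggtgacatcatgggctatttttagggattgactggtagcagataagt
Junb: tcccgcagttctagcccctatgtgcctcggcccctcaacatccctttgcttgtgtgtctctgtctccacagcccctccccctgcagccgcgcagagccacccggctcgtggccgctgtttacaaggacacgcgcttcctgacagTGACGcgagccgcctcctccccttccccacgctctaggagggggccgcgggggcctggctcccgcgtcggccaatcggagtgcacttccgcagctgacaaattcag
Nr4a1 held 4 of these cores, Fos 2, and Fosb and Junb 1 each, and Jun 0. Promoter windows, from 250 bases before to 50 after a start, were matched for 8 of the 10 genes, all but Egr1 and Ier2. TGACG, searched on both strands, was found in those of Fos, Fosb, Junb, Egr2, Atf3 and Nr4a1, and in 20.8% of all 32851 windows. A gene counted if any of its windows held the motif, and Egr2 had several, while the percentages are shares of single windows. The full element TGACGTCA (1.79% of all windows), the AP-1 site TGACTCA (5.2%), the NR4A site AAAGGTCA (1.51%) and the EGR site GCGTGGGCG (0.612%) were found in none of the 8. The CArG box, bound by SRF, was found only in Egr2 among the 8 and in 1.63% of all windows. Variant forms of these motifs, and sites outside the windows, were not searched, so these genes may still hold such sites. Among the 8 matched genes, Jun and Jund rose and had no TGACG in this window, and Junb had it and did not pass the test.

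Of the 10 genes, 8 rose with JHU083, 0 fell and 2, Junb and Ier2, did not pass the test (edgeR quasi-likelihood test, Benjamini-Hochberg adjusted p under 0.05 over all 12500 loci tested). Of all loci tested, 36.7% were called in either direction, 18.4% higher and 18.3% lower. The median log2 fold change was 0.51 over the 10 genes and 0.01 over all loci. All 5 JHU083 samples lay above all 5 vehicle samples for 5 of the genes, Fos, Fosb, Jund, Egr2 and Nr4a1, against 11.2% of all loci. Values are CPM, fragment counts relative to library size after TMM scaling, a normalization that assumes most genes do not change. With all 10 samples, the 8 increases ran from 1.20-fold for Jund to 1.57-fold for Egr2; the order of the genes differed between the fits that left samples out. In bulk samples, a change in the number of cells with a transcript and a change in its level per cell cannot be told apart. The summed level of 8 macrophage markers was also higher, 27514 to 36746 CPM in vehicle and 44610 to 63918 CPM in JHU083 samples, with 4 of the 8 called higher (Adgre1, Csf1r, Mertk and Apoe), 0 lower and none at 0 in all samples. This sum was mostly Apoe, with means of 21463 CPM in vehicle and 38244 CPM in JHU083. Cd68 (0.16), C1qa (0.15), C1qb (0.12) and Fcgr1 (-0.21, log2) did not pass the test. The part of these markers in the increases of the factors was not tested.

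**Figure D1:**
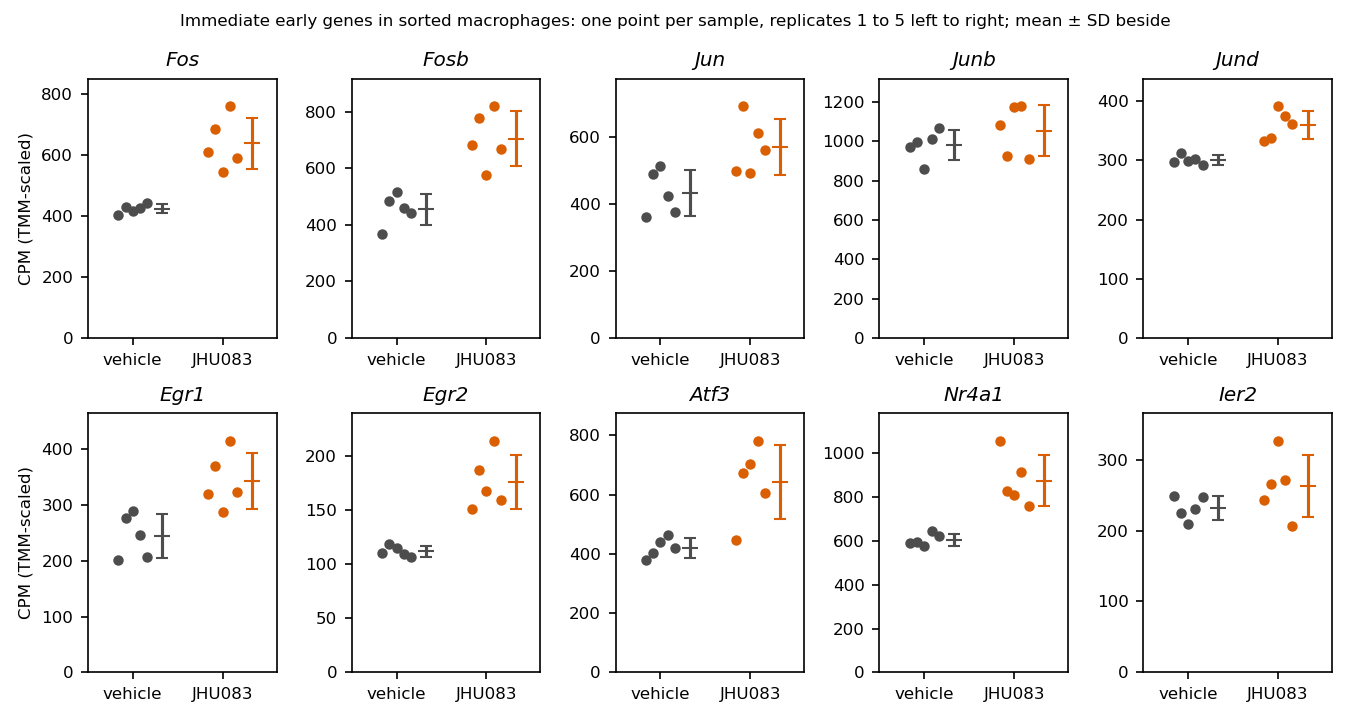
CPM of each gene (y axis, from 0) in the 5 vehicle and 5 JHU083 samples, 1 point per sample, with the group mean ± SD beside the points. Fos, Fosb, Jund, Egr2 and Nr4a1 show no overlap between groups, and Junb and Ier2 overlap widely.

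Fos (XLOC_008142, chromosome 12, 85473890 to 85477273, GRCm38) encodes the founding partner of Jun in AP-1. It stood at 404, 428, 416, 425 and 441 CPM in vehicle samples 1 to 5 and at 609, 683, 544, 758 and 589 CPM in JHU083 samples 1 to 5. The vehicle samples lay close together, with a coefficient of variation of 3.33% against 13.3% in JHU083, and every JHU083 sample was above every vehicle sample. The increase was 0.59 ± 0.09 on the log2 scale (SE, n = 5 per group, edgeR adjusted p = 0.000154).

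Fosb (XLOC_036326, chromosome 7, 19302696 to 19310051) encodes a close relative of Fos. Its vehicle values were 369, 486, 517, 458 and 442 CPM, and its JHU083 values 682, 778, 576, 819 and 666 CPM. The groups did not overlap, although the highest vehicle sample and the lowest JHU083 sample were near each other. Fosb rose by 0.63 ± 0.11 (log2, SE, adjusted p = 0.000467 by edgeR).

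Jun (XLOC_026862, chromosome 4, 95049034 to 95052222) encodes the main transactivating partner. It had 361, 489, 513, 424 and 374 CPM in vehicle and 497, 690, 492, 610 and 559 CPM in JHU083. Vehicle replicate 3 reached above the 2 lowest JHU083 samples, and 3 of 5 JHU083 samples were above all vehicle samples. The increase of 0.40 ± 0.12 (log2, SE) passed the test with an edgeR adjusted p of 0.0161, and did not pass with scaling to library size alone, at 0.32.

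Jund (XLOC_038990, chromosome 8, 70698949 to 70700616) encodes a Jun protein that is usually present without stimulation. Its values were 297, 313, 299, 303 and 292 CPM in vehicle and 333, 338, 391, 374 and 362 CPM in JHU083. The increase was 0.26 ± 0.06 (log2, SE, edgeR adjusted p = 0.00664), and the groups did not overlap, with a coefficient of variation of 2.62% in vehicle and 6.79% in JHU083.

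Junb (XLOC_040259, chromosome 8, 84974484 to 84978718) encodes a Jun protein that activates weakly and can oppose Jun. It had 973, 999, 862, 1010 and 1066 CPM in vehicle and 1083, 925, 1174, 1179 and 911 CPM in JHU083. The groups overlapped, and the difference of 0.10 ± 0.10 (log2, SE) did not pass the test (edgeR adjusted p = 0.426). It ran from 0.06 to 0.15 in fits that each left out 1 sample, and was 0.02 with scaling to library size alone. Whether the 3 Jun genes changed by different amounts was not tested.

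Egr1 (XLOC_016678, chromosome 18, 34859823 to 34864984) and Egr2 (XLOC_003630, chromosome 10, 67535475 to 67542188) encode factors that bind the same GC-rich site. Egr1 had 201, 276, 290, 247 and 207 CPM in vehicle and 320, 370, 287, 415 and 322 CPM in JHU083. JHU083 replicate 3 lay just under the highest vehicle sample, and the other 4 were above all of them. Egr1 rose by 0.49 ± 0.12 (log2, SE, edgeR adjusted p = 0.00571). Egr2, a factor linked to alternative activation and growth-factor responses of macrophages, had 110, 119, 115, 109 and 107 CPM in vehicle and 151, 187, 168, 214 and 159 CPM in JHU083. The groups were far apart relative to the vehicle spread of 4.31%. Egr2 rose by 0.65 ± 0.09 (log2, SE, edgeR adjusted p = 0.000112), and 6.53% of all loci tested had a larger one.

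Atf3 (XLOC_003269, chromosome 1, 191170296 to 191218039) encodes a factor that restrains inflammatory transcription. It stood at 379, 402, 441, 464 and 418 CPM in vehicle and at 448, 672, 702, 781 and 605 CPM in JHU083. JHU083 replicate 1 fell within the vehicle range, and the other 4 were well above it. This was the widest spread among the 10 genes, 19.6% in JHU083. The increase was 0.61 ± 0.12 (log2, SE, edgeR adjusted p = 0.00152), and 0.71 without that sample.

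Nr4a1 (XLOC_013049, chromosome 15, 101254269 to 101274795) encodes a nuclear receptor needed by patrolling monocytes. Its values were 592, 595, 576, 646 and 621 CPM in vehicle and 1056, 829, 810, 912 and 759 CPM in JHU083. JHU083 replicate 1, the lowest for Atf3, was the highest for Nr4a1. Nr4a1 rose by 0.53 ± 0.09 (log2, SE, edgeR adjusted p = 0.000511), with no overlap between the groups.

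Ier2 (XLOC_040249, chromosome 8, 84661331 to 84662852) had 249, 224, 209, 231 and 248 CPM in vehicle and 244, 266, 326, 271 and 206 CPM in JHU083. The lowest of all 10 samples was a JHU083 sample. The difference of 0.18 ± 0.10 (log2, SE) did not pass the test (edgeR adjusted p = 0.196). In fits that each left out 1 sample it ran from 0.09 to 0.26 and never passed.

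Levels were compared between genes on the deposited FPKM scale, which divides by transcript length. In vehicle, Junb had the highest level, 565 ± 42.4 FPKM (SD, n = 5), followed by Nr4a1 (246 ± 10.5), Atf3 (234 ± 25.7) and Fos (212 ± 6.84). The range of Atf3 overlapped with those of Nr4a1, Fos and Jund, and the ranges of Nr4a1 and Fos did not overlap. Jund (190 ± 5.48), Ier2 (163 ± 11.3), Jun (133 ± 21.5) and Fosb (126 ± 24.3 FPKM) came next. The ranges of Ier2 and Jun overlapped, as did those of Jun and Fosb. Egr1 (70.3 ± 10.9) and Egr2 (41.7 ± 4.16 FPKM) were the lowest. In JHU083 the order had Junb (609 ± 72.8 FPKM) first again, and Atf3 (378 ± 70.5), Nr4a1 (356 ± 48.4) and Fos (318 ± 41.5) behind it with overlapping ranges. Fosb reached 206 ± 30.5 FPKM and overlapped with Jund (228 ± 13.9) and Ier2 (185 ± 30.1), Jun stood at 176 ± 26.3 FPKM, and Egr1 (98.4 ± 15.4) and Egr2 (68.8 ± 8.84) stayed lowest. Junb was the most abundant of the 10 transcripts in both groups and did not pass the test.

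Within the Jun family, Junb made up 58.9% to 67.2% of the summed FPKM in vehicle and 55.5% to 63.2% in JHU083, and the shares of Jun and Jund overlapped between groups too. Within the Fos family, which also holds Fosl1 and Fosl2, Fos made up 44.5% to 52.3% in vehicle and 49.6% to 52.4% in JHU083. The Fosl2 share was 18.9% to 21.6% in vehicle and 14.1% to 18.4% in JHU083, and the Fosl1 share 1.04% to 3.24% and 0.178% to 0.441%, both without overlap. The level of Fosl2 itself rose, from a mean of 489 CPM in vehicle to 599 CPM in JHU083 (0.29 ± 0.08, log2, SE, edgeR adjusted p = 0.0152), while its share was lower. These shares were computed after the values had been seen and were not tested.

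The samples differed in a way that the treatment labels do not explain: Rn18s-rs5 and Gm42418, loci of ribosomal RNA sequence, read 0 in 3 samples of the vehicle group and 2 of the JHU083 group, and held 2.87% to 5.59% of fragments in the other 5. The comparison was repeated within each set. Among the 5 samples reading 0, 4 of the 10 genes passed the test, at 0.42 for Fos, 0.45 for Fosb, 0.52 for Egr2 and 0.59 for Nr4a1 (log2). Jun (0.21), Jund (0.26), Egr1 (0.32) and Atf3 (0.43) were higher there without passing. Among the other 5 samples, 7 genes passed, at 0.49 for Jun, 0.50 for Nr4a1, 0.58 for Egr1, 0.71 for Fos, 0.72 for Egr2, 0.73 for Atf3 and 0.76 for Fosb, and Jund was 0.25 without passing. Each set has only 2 or 3 samples per group, and 1118 and 2819 of all loci passed in the first and second set against 4589 with all samples. The direction was the same in both sets for all 10 genes. Leaving out any 1 of the 10 samples kept the count at 8 genes higher and 0 lower.

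**Figure D2:**
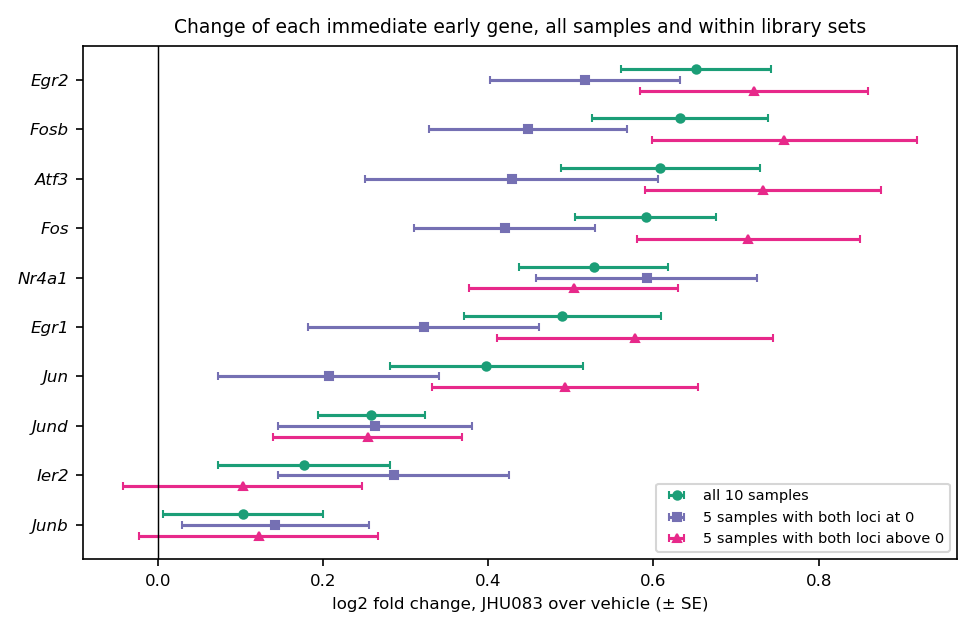
Log2 fold change of JHU083 over vehicle (x axis, ± SE) for each gene, from all 10 samples (circles), from the 5 samples where Rn18s-rs5 and Gm42418 read 0 (squares) and from the other 5 (triangles). All points lie above 0, and Junb and Ier2 lie lowest with all samples, at 0.10 and 0.18.

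The relation of the other 9 genes to Fos within treatments was described next. After subtracting group means, the Fosb level across the 10 samples had r = 0.77 with Fos (exact within-group permutation p = 0.00889, adjusted p = 0.08 over 9 genes; rho = 0.81, exact permutation p = 0.0169, adjusted p = 0.152). Without JHU083 replicates 3 and 4, the samples farthest from the median of Fos, r was 0.56. Egr2 had r = 0.76 and rho = 0.65 (exact permutation p = 0.0897 and 0.154), and Egr1 0.64 and 0.64 (p = 0.0295 and 0.0529, exact permutation). Without those 2 samples r was 0.63 for Egr2, 0.29 for Egr1 and 0.61 for Ier2, which had -0.06 with all samples, so the order of the genes rests on those 2 samples. None of the 9 relations passed adjustment; adjusted p-values were at least 0.08 for r and 0.152 for rho. The other r values ran from -0.20 for Jund to 0.50 for Jun. JHU083 replicate 4 was the highest of its group for 6 genes, Fos, Fosb, Junb, Egr1, Egr2 and Atf3, and JHU083 replicate 3 the lowest for 4, Fos, Fosb, Jun and Egr1. Vehicle replicate 1 was the lowest of its group for 5 genes, Fos, Fosb, Jun, Egr1 and Atf3.

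**Figure D3:**
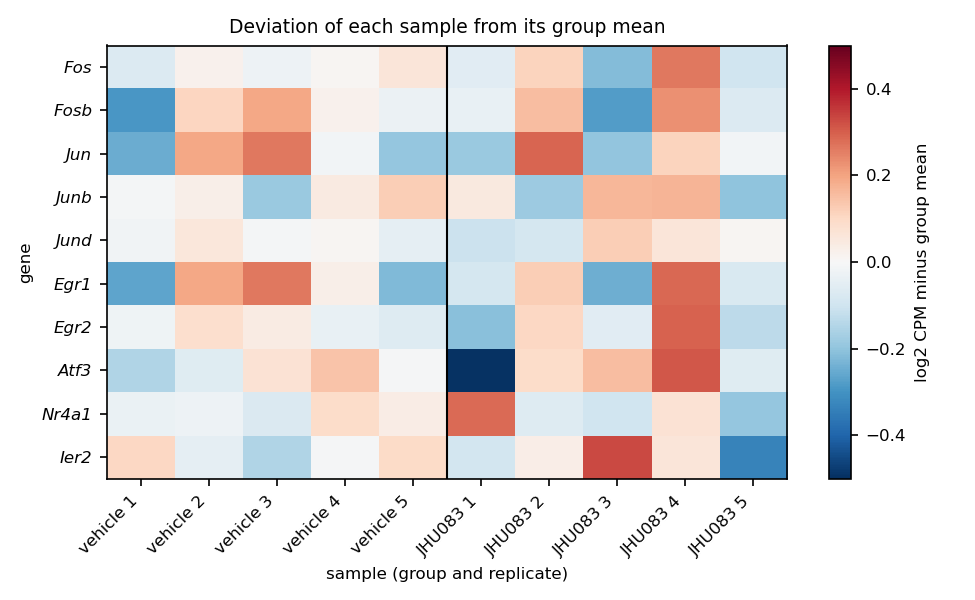
Log2 CPM of each gene (rows) in each sample (columns) minus the mean of its group, from blue (lower) to red (higher). JHU083 replicate 4 is above its group mean for all 10 genes, and JHU083 replicate 1 shows the lowest Atf3 value and the highest Nr4a1 value of its group.

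Among 7244 loci with an average log2 CPM of at least 4, those most like the mean of the 10 genes across the 10 samples, after subtracting group means, were Cdc5l (r = 0.92), AU019823 (0.86), Dusp1 (0.86), Alg2 (0.85), Gramd4 (0.84) and St3gal4 (0.83). Dusp1 encodes a phosphatase that inactivates MAP kinases and is itself an immediate early gene. These are the highest of many values over few samples and are given as a description. For Dusp1, JHU083 replicate 4 stood at 9.48 log2 CPM and the rest of its group at 9.03 to 9.13. Its r without that sample was not computed.

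Among 11 relatives of the AP-1 proteins, 6 rose, 2 fell and 3 did not pass the test, with a median log2 fold change of 0.29. Over all loci tested, 18.4% were called higher and 18.3% lower, with a median of 0.01. Jdp2, which encodes a repressor that pairs with Jun proteins, rose from 55.1 to 58.4 CPM in vehicle samples to 74.4 to 98.4 CPM in JHU083 samples (0.63 ± 0.08, log2, SE, edgeR adjusted p = 4.73e-05). The small Maf genes Mafk (0.50 ± 0.10, adjusted p = 0.00215 by edgeR) and Maff (0.51 ± 0.16, adjusted p = 0.0254) rose too, and the Maff call was lost in 4 of 10 fits that each left out 1 sample. Fosl1, which encodes the Fos relative FRA-1, fell from 7.28 to 23.9 CPM in vehicle samples to 1.49 to 5.12 CPM in JHU083 samples (log2 fold change -2.28 ± 0.34, SE, edgeR adjusted p = 0.000208). Batf2 fell by 0.87 on the log2 scale (edgeR adjusted p = 0.000185). Fos and Fosb therefore went up where Fosl1 went down. Fosl1 was low next to Fos. The 6 tumour epithelial markers tested were Epcam, Krt8, Krt18, Krt19, Cdh1 and Cldn7. All 6 were also lower in JHU083, summed at 259 to 549 CPM in vehicle samples and 92.8 to 192 CPM in JHU083 samples. So were 5 of 6 fibroblast markers (103 to 224 CPM and 25.6 to 113 CPM) and 1 of 3 endothelial markers tested, and no marker of these 3 lists was at 0 in all samples. These markers were read in samples sorted as macrophages. Their relation to Fosl1 from sample to sample was not computed. Their part in the falls of Fosl1 and Batf2 was not tested.

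Among 24 other immediate early and rapid-response genes, 15 rose, 2 fell and 7 did not pass the test, with a median log2 fold change of 0.37, beside 18.4% of all loci higher, 18.3% lower and a median of 0.01. Klf4, which encodes a Krüppel-like factor of monocyte differentiation, rose from 61.2 to 120 CPM in vehicle samples to 177 to 296 CPM in JHU083 samples (1.45 ± 0.18, log2, SE, edgeR adjusted p = 4.73e-05). Klf2, a related factor with anti-inflammatory roles, rose by 0.59 ± 0.09 (edgeR adjusted p = 0.000255), without overlap between groups. Nr4a3, a sister gene of Nr4a1, rose by 0.62 ± 0.17 (edgeR adjusted p = 0.0128). Arc, a low transcript at 1.17 to 4.13 CPM, was higher by 0.76 ± 0.27 (edgeR adjusted p = 0.0411), a call lost in 6 of 10 fits that each left out 1 sample. Cyr61, a secreted matrix protein gene, fell by 0.93 on the log2 scale (edgeR adjusted p = 0.027). The Cyr61 call was lost with DESeq2 (-0.94) and in 4 of those 10 fits. Lower tumour epithelial, fibroblast and endothelial markers were given above, and their part in the fall of Cyr61 was not tested.

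**Figure D4:**
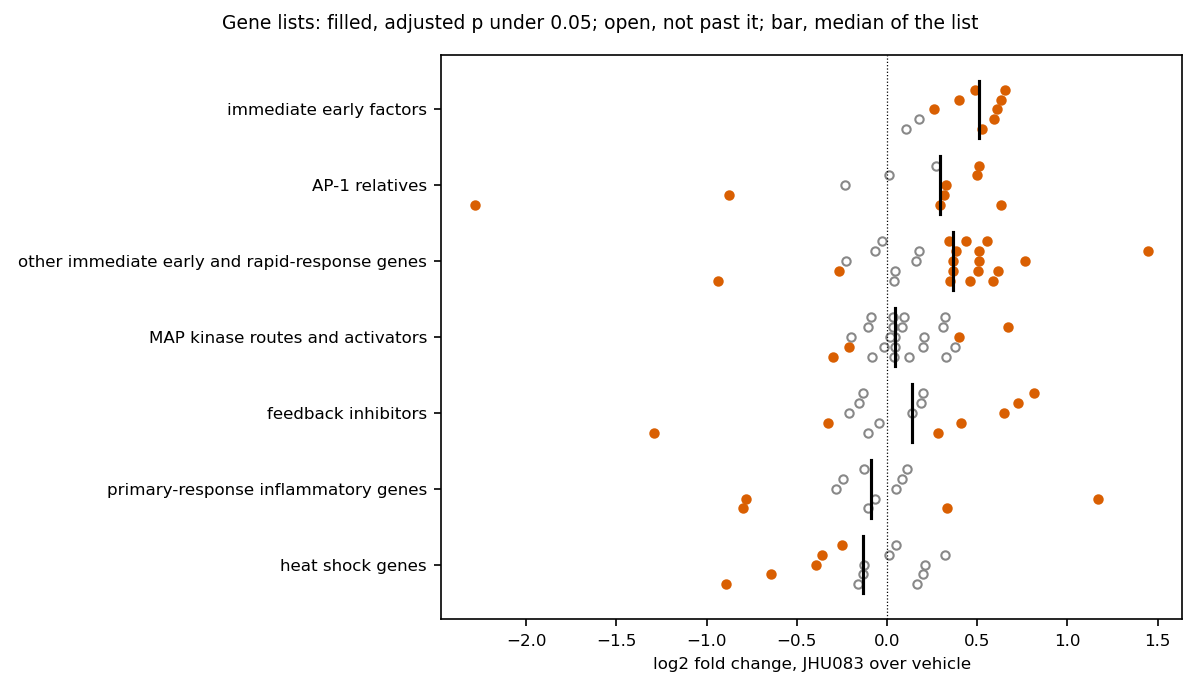
Log2 fold change of JHU083 over vehicle (x axis) for every gene tested in the 10 immediate early factors and in 6 related lists (rows), filled where the adjusted p was under 0.05, with the median of each list as a bar. The medians are 0.51 for the 10 factors, 0.37 for the other immediate early and rapid-response genes and -0.13 for the heat shock genes.

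Transcripts of the kinases that act upstream were examined as well. Of 24 genes for MAP kinase routes and promoter-bound activators, 2 rose, 2 fell and 20 did not pass the test, with a median log2 fold change of 0.05; over all loci, 18.4% were called higher and 18.3% lower. Map3k8, which encodes the kinase TPL2 that links Toll-like receptors to ERK, rose from 23.2 to 28.0 CPM in vehicle samples to 34.4 to 45.8 CPM in JHU083 samples (0.67 ± 0.09, log2, SE, edgeR adjusted p = 0.000102). Map2k1 (-0.21) and Map2k2 (-0.30), which encode the ERK-activating kinases MEK1 and MEK2, were lower with edgeR adjusted p-values of 0.0276 and 0.0291, beside the same lower markers of tumour epithelium and fibroblasts, whose part was not tested. Map2k6 was higher at 0.40 (edgeR adjusted p = 0.031). These last 3 calls were each lost in 5 of 10 fits that left out 1 sample. The difference in Srf, which encodes the factor that binds CArG boxes, was -0.02 (edgeR adjusted p = 0.897), and that in Creb1 was 0.33 (0.0529); both were chosen after their values were seen. Transcript levels do not measure the phosphorylation of these proteins.

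Of 15 feedback inhibitors, 5 rose, 2 fell and 8 did not pass the test, with a median log2 fold change of 0.14. The shares over all loci were 18.4% higher and 18.3% lower, with a median of 0.01. Dusp1 rose from 296 to 344 CPM in vehicle samples to 522 to 712 CPM in JHU083 samples (0.81 ± 0.09, log2, SE, edgeR adjusted p = 1.58e-05). Dusp3 rose by 0.65 ± 0.08 (edgeR adjusted p = 3.68e-05). The locus of Spry1, an inhibitor of receptor signalling to ERK, which also lists Gm43820, rose by 0.73 ± 0.13 (edgeR adjusted p = 0.000591). Dusp5 rose by 0.41 ± 0.14 (edgeR adjusted p = 0.0289), a call lost in 5 of 10 fits that each left out 1 sample. Spry4 fell by 1.29 on the log2 scale from 1.04 to 2.26 CPM in vehicle samples to 0.224 to 0.841 CPM in JHU083 samples (edgeR adjusted p = 0.00957), which is near the level of 3 fragments, 0.191 to 0.269 CPM. The part of the lower tumour epithelial and fibroblast markers in the fall of Spry4 was not tested.

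Inflammatory genes that are often induced alongside immediate early factors were examined next. Of 12 such genes, 2 rose, 2 fell and 8 did not pass the test, with a median log2 fold change of -0.09, and counts near the shares over all loci, 18.4% higher and 18.3% lower. Cd83, an activation marker of antigen-presenting cells, rose from 340 to 362 CPM in vehicle samples to 675 to 995 CPM in JHU083 samples (1.17 ± 0.09, log2, SE, edgeR adjusted p = 2.28e-06). Tnf was higher by 0.33 ± 0.11 (edgeR adjusted p = 0.0264), a call lost in 5 of 10 fits that each left out 1 sample. Cxcl1, a neutrophil chemoattractant, and Il6 fell by 0.78 and 0.80 on the log2 scale (edgeR adjusted p = 0.00485 and 0.00507). The tumour epithelial and fibroblast markers given above were lower in the same samples, and their part in these falls was not tested.

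Heat shock genes, which encode chaperones induced by protein stress, were examined beside the immediate early genes. Of 14, none rose, 5 fell and 9 did not pass the test, with a median log2 fold change of -0.13, against 18.4% higher, 18.3% lower and a median of 0.01 over all loci. Dnajb1, an HSP40 co-chaperone gene, fell from 552 to 627 CPM in vehicle samples to 289 to 427 CPM in JHU083 samples (-0.64 ± 0.09, log2, SE, edgeR adjusted p = 0.000131). Hspb1 (-0.89), Hsp90ab1 (-0.39), Hspd1 (-0.36) and Hspe1 (-0.25) were the others that fell, the last 2 with calls lost in 5 and 8 of 10 fits that each left out 1 sample. All 6 tumour epithelial and 5 of 6 fibroblast markers were lower in JHU083 too, and their part in the falls of the heat shock genes was not tested. Hspa1a and Hspa1b, inducible HSP70 genes of near-identical sequence whose fragments may be split between them, were abundant in both groups. Hspa1a stood at 5504 to 6338 CPM in vehicle samples and 6295 to 9347 CPM in JHU083 samples, without passing the test (0.32, edgeR adjusted p = 0.0546). Hspa1b likewise differed by 0.21 (edgeR adjusted p = 0.23). These 2 genes were named after their values were seen.

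The libraries held 11147722 to 14575720 fragments in vehicle and 13638167 to 15740482 in JHU083, and each of the 10 genes had at least 1254 fragments in every sample. Mitochondrial transcripts made up 1.53% to 2.09% of fragments in vehicle and 2.14% to 2.44% in JHU083, without overlap, and their part in the changes above was not tested. Markers of neutrophils summed to 74.2 to 91.6 CPM in vehicle and 77.7 to 105 CPM in JHU083, mostly Csf3r, which was higher (0.53, log2). The granule genes S100a8 (-1.40) and S100a9 (-2.18) were lower, edgeR adjusted p = 0.000872 and 0.000196, so that of 3 neutrophil markers tested 1 was higher and 2 lower. Markers of T and NK cells summed to 13.9 to 18.1 and 26.7 to 42.9 CPM, mostly Cd4. The T-cell receptor genes Cd3e and Cd3d had at most 10 and 8 fragments in any sample. Of 4 monocyte markers tested, 1 was higher, Chil3 (2.08, log2, edgeR adjusted p = 0.00374), and 0 lower. Of 3 eosinophil markers tested, 1 was higher, Siglecf (0.89, edgeR adjusted p = 0.0115), and 0 lower. Cd79b, the 1 B-cell marker tested, was higher (0.51, edgeR adjusted p = 0.0498). The part of these cells in the changes above was not tested.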

How the data were processed

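RNA from 10 samples of sorted macrophages was sequenced from polyadenylated RNA, per the labels' protocols. The submitters' processing notes name bcl2fastq 2.17.1.14, FastQC 0.11.2, TopHat2 2.1.1 and build GRCm38; the counting program, annotation and use of strand are not given in the sources used here. The column headed raw counts that the authors deposited is not whole and is taken here to hold estimated counts (a scaled form of expected counts): in each sample 99.6% to 99.9% of positive values were within 0.05 of a whole multiple of a step of 0.888 to 1.17. Values were divided by the step and rounded to fragment counts, which is an inference. The column headed normalized was taken as FPKM deposited by the authors. The 1 locus without a symbol, at most 0.00209% of fragments, was left out.

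Loci were filtered with filterByExpr, scaled with TMM and tested with edgeR 4.0.16 (quasi-likelihood F-test, R 4.3.3), 5 against 5 samples without covariates, with Benjamini-Hochberg adjustment at 0.05. The scripts were tested on simulated data with 12500 loci. With 200 loci changed by 0.5 on the log2 scale, edgeR recovered 31% of them, and 11.4% of its calls were false. With 200 loci changed by 1, it recovered 88%, and 5.88% of its calls were false. With no locus changed, it called 0. Alternatives used DESeq2 1.42.0 and limma 3.58.1 (voom, and limma-trend on log2 of the deposited values with a pseudocount of 1, which was added after seeing the data), other scalings and filters, sample sets and fits without 1 sample each. Genes named are the 10 factors and, from each list, up to 5 called genes of largest absolute log2 fold change. The members and lists were chosen with earlier results of these data known. The replicate numbers of the labels did not pair the samples: same-numbered samples had correlations of deviations from -0.57 to 0.09. Positions come from GENCODE M21.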

Additional observations from a re-analysis of the deposited data

Results flagged for a closer look

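Dusp1, one of the genes whose pattern was most like that of the immediate early factors, had 1 sample far from the others in the JHU083 group. JHU083 replicate 4 stood at 9.48 on the log2 CPM scale; its 4 companions ranged from 9.03 to 9.13, so that the gap was 0.766 of the whole range, above the critical value of 0.71. The same sample was the highest of its group for 6 of the 10 factors. Without it, Dusp1 was still higher in JHU083, as in the other fits that left out 1 sample, at 0.73 to 0.85 on the log2 scale. In all, 76 groups of 5 values were examined, and chance flags about 1 in 20 groups. None of the 10 factors was flagged in either group.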

How the results depend on the processing

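Of 230 comparisons of the 10 factors with an alternative setting, 224 kept direction and call, 6 lost the call and 0 changed direction. Junb and Ier2 had no call to lose, and their 23 comparisons each are among the 224. The settings reuse the same 10 samples or part of them. Jun lost its call with scaling to library size only, at 0.32. Among the 5 samples with Rn18s-rs5 and Gm42418 listed at 0, Jun (0.21), Jund (0.26), Egr1 (0.32) and Atf3 (0.43) lost it and 4 genes passed, and among the other 5 Jund lost it (0.25). These sets gave 532 and 1274 loci higher, and 586 lower in the first; they hold fewer samples, and no other cause was tested. With the replicate block, 8 of the 10 genes were higher and 0 lower, and 1612 loci were higher and 1757 lower, against 2296 and 2293. The block ended the calls of Arc, Dusp5, Hspd1, Hspe1, Maff, Map2k1, Map2k2 and Map2k6 and of no factor. A lost call need not be a lost difference: Maff was 0.48 with the block and 0.51 without it. With library-size scaling 1564 loci were higher and 3141 lower, 33.2% higher among the called against 50.03%. Ier2 had r = -0.06 with Fos, and 0.61 without JHU083 replicates 3 and 4. Of 28 list genes named, 18 kept their call outside the 2 sample sets. Among the rest, Maff also lost its call with scaling to library size only, at 0.42. Without 1 sample each, Arc ran from 0.64 to 0.98, Maff from 0.40 to 0.64, Dusp5 from 0.30 to 0.53, Tnf from 0.27 to 0.42, Map2k6 from 0.33 to 0.50, Map2k1 from -0.23 to -0.17, Map2k2 from -0.38 to -0.24, Cyr61 from -1.09 to -0.75, Hspe1 from -0.30 to -0.17 and Hspd1 from -0.47 to -0.28. Calls were lost without vehicle replicate 1 or 5 for Maff, Arc, Map2k1, Map2k2, Dusp5 and Hspe1; without vehicle replicate 2, 3 or 4 for Cyr61, Map2k6, Hspe1 and Hspd1, without 3 or 4 for Tnf, and without 4 for Arc and Dusp5; without JHU083 replicate 1 for Maff, Arc, Map2k6, Dusp5 and Tnf; without 2 for Map2k1, Map2k2, Hspe1 and Hspd1; without 4 for all 10 but Cyr61; and without 5 for Cyr61, Arc, Map2k1, Map2k2, Tnf and Hspe1. At this depth, genes under about 0.269 CPM cannot be compared.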

Other observations

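The ratio of deposited FPKM to deposited count, which should be fixed for a gene of fixed length, varied between samples for some of the factors. As a percentage of the vehicle mean, it ran from 94.5 to 112 in vehicle and from 102 to 109 in JHU083 for Fosb, from 93.5 to 104 and from 102 to 109 for Atf3, and from 91.6 to 112 and from 101 to 108 for Egr2. For Jun it stayed between 99.8 and 100.1 in all 10 samples. The groups overlapped for each of these genes. FPKM was therefore used only to order levels between genes and for shares within families, and the tests rest on counts.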
